A study of Mus musculus with 6 samples.

Results

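Described here are 10 genes whose products, beside that of *Smarcb1*, make up SWI/SNF chromatin remodelers: *Smarca4*, *Smarca2*, *Arid1a*, *Arid1b*, *Smarcc1*, *Smarcc2*, *Smarcd1*, *Smarcd2*, *Smarce1* and *Actl6a*. They were taken by name from the single-cell tables of 6 mouse rhabdoid tumors, and all 10 were listed in all 6 tables, among 16557 genes in all. UMIs (unique molecular identifiers, which count each captured transcript once) were summed per tumor over tumor cells and over immune-like cells, and scaled to 1000000 UMIs of the sum (CPM). These tumors arise after loss of *Smarcb1*, and the comparison of interest was therefore how the remaining subunits were expressed in cells without it.

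SWI/SNF complexes use the energy of ATP to slide or evict nucleosomes and so open promoters and enhancers. Each complex is built around 1 ATPase, *Smarca4* (BRG1) or *Smarca2* (BRM). The core of most forms holds *Smarcb1*, a pair of *Smarcc* scaffold proteins, a *Smarcd* protein and *Smarce1*. *Arid1a* or *Arid1b* marks the canonical form (cBAF), whereas *Pbrm1*, *Arid2*, *Brd7* and *Phf10* belong to PBAF, and *Brd9*, *Bicra* and *Bicral* to a form that lacks *Smarcb1*. *Actl6a* (BAF53a) is an actin-related protein that joins the ATPase together with actin. Loss of *Smarcb1*, or rarely of *Smarca4*, defines rhabdoid tumors. Without *Smarcb1*, complexes of the other subunits still assemble.

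The MYC spinal group comprised 3 spinal tumors, numbered 1 to 3, taken at 19, 26 and 17 weeks. The eRT (extracranial rhabdoid tumor) group comprised 3 tumors, of a gland (eRT 1), the jaw (eRT 2) and the shoulder (eRT 3), taken at 17, 29 and 22 weeks. All 6 mice carried *Smarcb1* fl/fl and were exposed in utero to a single dose of tamoxifen, 50 mg/kg given to the dam at 6.5 days post-coitum. The Cre was Rosa26-creERT2, which is active in all tissues, in the 3 MYC spinal tumors and in eRT 1, and Sox2-creERT2, which is driven in *Sox2*-expressing cells, in eRT 2 and eRT 3, so that subtype and strain were partly confounded. No tumor with intact *Smarcb1* was analysed here, and immune-like cells of the same tumors were the reference. Each tumor was 1 library of 1 mouse, and p-values refer to the spread between sums of these animals. In edgeR that spread is estimated in part from all genes tested, so it is not that of a gene's own values alone. Such borrowing weighs most on the comparison of mitotic cells, which rests on 3 tumors. The contrasts with single types also take the spread from several sums per animal.

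The 22163 cells kept carried between 3841706 and 26184224 UMIs per tumor. Of these, 2476 were tumor cells, 19377 were immune-like and 310 were neither. Tumor cells numbered 97, 13 and 1472 in MYC spinal 1 to 3, and 68, 201 and 625 in eRT 1 to 3. In the same order, their summed UMIs came to 549246, 43373, 8044113, 468008, 620645 and 3008660. The tumor cells of MYC spinal 2 gave only 18 UMIs of the 10 subunits together, so 1 UMI there was worth 23.1 CPM, and the results it touches are given also without it. All 13 of these cells, and 67 of the 97 of MYC spinal 1, fell in a tumor subcluster led by *Inmt*, *Apod* and *Mgp*, which held 1 cell of MYC spinal 3. Whether the cells of this subcluster are tumor cells was not tested, and the main comparison is given also without them. Library MYC spinal 2 also stood apart in its immune-like cells, with a median of 915 UMIs per cell against 1331 to 5188 in the other tumors, and with the neutrophil marker list at 118108 CPM against 247 to 10487 CPM.

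*Smarcb1* itself, the deleted gene, was at 0 UMIs in the tumor cells of MYC spinal 1 and MYC spinal 2, and the remaining tumors, from MYC spinal 3 to eRT 3, had 2.73, 6.41, 1.61 and 1.99 CPM. A count of 0 allows up to 5.46 CPM in MYC spinal 1 and 69.2 CPM in MYC spinal 2, the value of 3 UMIs, for counting error only. UMIs come from the 3′ end of transcripts, and whether it lies in the deleted part was not examined. In the immune-like cells *Smarcb1* lay between 27.1 and 60.3 CPM. Clusters had been taken as tumor cells for low *Smarcb1*, so these values describe the choice and test nothing, and the subunits were left out of the genes used for clustering. Pan-immune markers were low but present in tumor cells: the 5 genes summed to 63.7 to 442 CPM in tumor cells and 4934 to 9371 CPM in immune-like cells. Immune-like clusters had been chosen by these same 5 genes, so that this difference also follows from the choice. In reverse, the 6 measured genes of the fibroblast list of 7 summed to 614 to 2790 CPM in tumor cells and 2.02 to 35.0 CPM in immune-like cells. Lists of single immune types were mostly lower in tumor cells by median, but not in every tumor. The neutrophil list stood at 17984 CPM (780 UMIs) in tumor cells of MYC spinal 2, against 118108 CPM in its immune-like cells. In eRT 1 the monocyte list was higher in tumor cells (1111 against 364 CPM). The mature dendritic cell list had a median of 116 CPM in tumor and 40.5 CPM in immune-like cells. The part of these differences, and of the higher UMI number per tumor cell (median 2049 to 6142 per tumor, against 915 to 5188 in immune-like cells), in the results below was not tested.

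Promoter sequence is a feature that the choice of the genes did not use, and a few windows are shown: those of *Arid1a*, the subunit that differed most below, of *Smarca4*, the catalytic ATPase, and of *Smarcc2*, for contrast. Windows of 250 bases before annotated starts (RefSeq, GRCm38.p6) were found for 9 of the 10 genes, with 2 windows for *Arid1a* and none for *Smarce1*. Many were not upstream of the whole gene. Those of *Arid1b*, *Smarcc1*, *Smarcd2* and *Actl6a* and the inner one of *Arid1a* lie wholly inside the annotated gene, and those of *Smarca2* and *Smarcd1* partly. The GC box, spelled GGGCGG and sought on both strands, lay in 9 of these 10 windows, against 32.7% of all 32851 windows of 27025 genes. The E-box CACGTG, a palindrome bound by MYC, lay in 0 of the 10 windows, against 6.02% of all windows. The median GC content was 69.6% in the 10 windows and 52.4% in all windows. Capitals mark the GC box, read on either strand, in the following windows, given 5′ to 3′ on the strand of the gene. The first lies before *Arid1a* at chr4:133756770-133757019, minus strand, and the second before an inner *Arid1a* start at chr4:133753986-133754235, minus strand, inside the gene but outside annotated exons. The third lies before *Smarca4* at chr9:21615919-21616168, plus strand. The last lies before *Smarcc2* at chr10:128458986-128459235, plus strand, and is the window without a GC box.
Arid1a, outer start: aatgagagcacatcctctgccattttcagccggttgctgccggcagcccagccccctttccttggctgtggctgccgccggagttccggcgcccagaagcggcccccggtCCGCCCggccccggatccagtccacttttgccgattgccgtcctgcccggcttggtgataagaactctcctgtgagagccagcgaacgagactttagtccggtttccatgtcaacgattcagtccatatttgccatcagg
Arid1a, inner start: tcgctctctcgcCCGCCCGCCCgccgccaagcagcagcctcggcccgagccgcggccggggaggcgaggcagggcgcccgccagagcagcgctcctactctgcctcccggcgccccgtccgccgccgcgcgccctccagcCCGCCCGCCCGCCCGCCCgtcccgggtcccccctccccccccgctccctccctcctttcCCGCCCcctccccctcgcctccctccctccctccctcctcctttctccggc
Smarca4: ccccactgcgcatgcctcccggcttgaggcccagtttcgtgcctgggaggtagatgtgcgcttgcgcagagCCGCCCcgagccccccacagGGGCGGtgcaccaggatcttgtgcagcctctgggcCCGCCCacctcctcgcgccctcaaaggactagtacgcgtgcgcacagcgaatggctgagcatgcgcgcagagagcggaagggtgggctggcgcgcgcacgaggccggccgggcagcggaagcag
Smarcc2: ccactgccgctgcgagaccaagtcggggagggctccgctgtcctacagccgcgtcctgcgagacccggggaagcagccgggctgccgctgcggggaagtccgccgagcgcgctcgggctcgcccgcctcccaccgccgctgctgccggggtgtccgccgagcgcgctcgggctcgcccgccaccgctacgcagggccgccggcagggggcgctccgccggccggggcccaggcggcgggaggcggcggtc

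The summed level of the 10 subunits overlapped between tumor and immune-like cells, and 1 of them, *Arid1a*, rose in tumor cells. Summed over the 10 genes, tumor cells held 321 to 690 CPM (median 470, 6133 UMIs) and immune-like cells 328 to 497 CPM (median 400, 20322 UMIs), ranges that overlapped. In edgeR's quasi-likelihood test with the tumor as a block, 1 of 10 subunits passed an adjusted p of 0.05, against 26.6% of all 9633 genes tested, so that the count of called subunits is not a result about the family. The genes called split into 1176 higher and 1390 lower in tumor cells, or 1512 and 1166 without TMM factors. Leaving out these factors moved the median of all genes tested from -0.03 to 0.15 on the log2 scale. The median log2 fold change of the 10 subunits was 0.05. Changes given below as rises, falls and fold changes are on the log2 scale.

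*Arid1a*, whose product binds DNA and helps to place cBAF at enhancers, was the subunit that differed most. Its level in tumor cells was 147, 161 and 118 CPM in MYC spinal 1 to 3, and 83.3, 53.2 and 111 CPM in eRT 1 to 3, an order kept for all values per tumor below. In immune-like cells of the same tumors it was 51.6, 109 and 46.7 CPM, and 33.1, 41.5 and 57.0 CPM. It was thus higher in tumor cells within 6 of 6 tumors, by 1.28 to 2.86 times, although the ranges over tumors overlapped (33.1 to 109 CPM and 53.2 to 161 CPM). In MYC spinal 2 the ratio of 1.48 rested on few counts. Its tumor cells gave 8 UMIs of *Arid1a* and *Arid1b* together, 1 of them of *Arid1b*. The log2 fold change of *Arid1a* was 0.85 (SE 0.23, edgeR adjusted p = 0.0211), and 0.96 (edgeR adjusted p = 0.00855) without MYC spinal 2. The call was lost without MYC spinal 1 (0.78, edgeR adjusted p = 0.0509), MYC spinal 3 (0.78, 0.0699), eRT 1 (0.77, 0.0695) or eRT 3 (0.85, 0.0628), and without the pairing by tumor (0.67, 0.175). The direction held in all 24 alternatives, between 0.67 and 1.06. The call held in 2 alternatives on tumor subclusters chosen after seeing the data: without those led by immune genes (0.79, edgeR adjusted p = 0.0309), and without the one led by *Inmt*, *Apod* and *Mgp* (0.88, edgeR adjusted p = 0.0130, 1 of 10 subunits called), which left 30 tumor cells in MYC spinal 1 and none in MYC spinal 2. Being higher in all 6 tumors was found for 12.5% of all genes and for 1 of 10 subunits, and being lower in all 6 for 12.9% of all genes and for 0 of 10. *Arid1b*, the paralog of *Arid1a*, was at 27.3, 23.1 and 19.3 CPM in MYC spinal tumor cells, against 23.5, 9.67 and 21.3 CPM in those of eRT. Its immune-like levels were 8.08, 52.1 and 11.8 CPM and 8.10, 15.2 and 10.1 CPM, so that it was higher in tumor cells in 4 of 6 tumors. Its log2 fold change of 0.58 (SE 0.37, edgeR adjusted p = 0.286) did not pass and became -0.07 without the pairing.

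**Figure D1:**
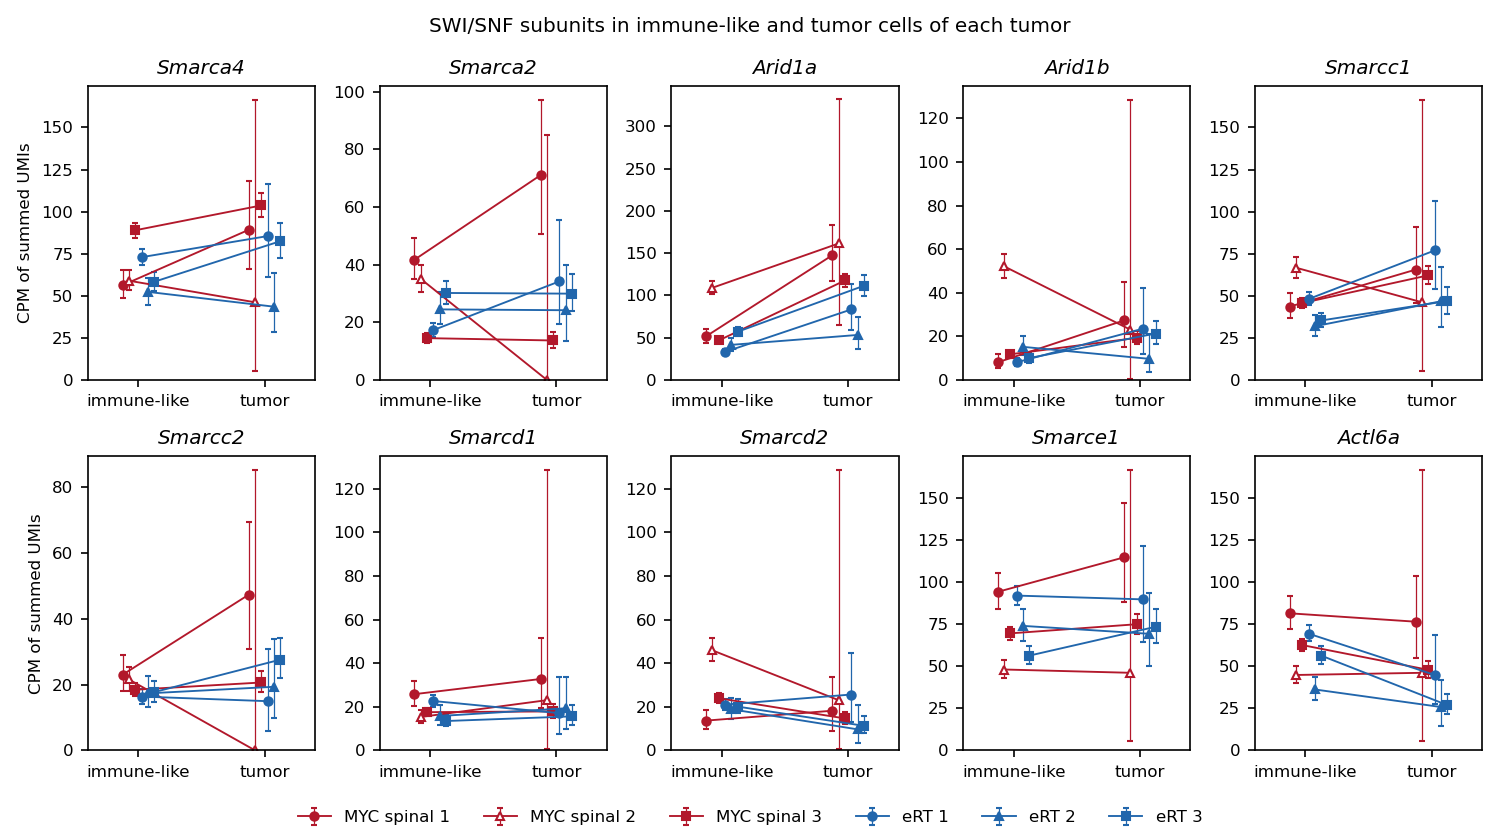
Levels of the 10 subunits, in CPM of summed UMIs, in immune-like cells (left) and tumor cells (right) of each of 6 tumors, joined by a line per tumor, with MYC spinal tumors in red, eRT in blue and MYC spinal 2 as open symbols. Bars are exact 95% Poisson intervals, which cover counting error only. The *Arid1a* lines rise in all 6 tumors (33.1 to 109 CPM in immune-like cells, 53.2 to 161 CPM in tumor cells), and the widest bars are those of the 13 tumor cells of MYC spinal 2.

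The ATPases did not differ detectably between tumor and immune-like cells. *Smarca4*, the ATPase on which *Smarcb1*-deficient cells are known to rely, was at 89.2, 46.1 and 104 CPM in MYC spinal tumor cells, against 85.5, 43.5 and 82.4 CPM in those of eRT. In immune-like cells it was at 56.3, 58.9 and 88.9 CPM and at 72.9, 52.3 and 58.3 CPM, a range within that of the tumor cells. Its log2 fold change was 0.06 (SE 0.22, edgeR adjusted p = 0.884), with 4 of 6 tumors higher in tumor cells. *Smarca2*, the alternative ATPase, had a wide range over tumors in both kinds of cells. It was at 71.0, 0 and 13.7 CPM in MYC spinal tumor cells, where 0 allows up to 69.2 CPM, and at 34.2, 24.2 and 29.9 CPM in eRT. The same tumors had 41.7, 35.0 and 14.5 CPM and 17.3, 24.5 and 30.2 CPM in immune-like cells, so MYC spinal 1 was highest and MYC spinal 3 lowest in immune-like cells, and MYC spinal 1 was highest and MYC spinal 3 second lowest in tumor cells. The log2 fold change of *Smarca2* was 0.04 (SE 0.33, edgeR adjusted p = 0.954).

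None of the core subunits passed the test. The scaffold genes *Smarcc1* and *Smarcc2*, on which the complex first assembles, were at 46.1 to 76.9 CPM (median 54.5) and 0 to 47.3 CPM (median 20.0) in tumor cells. In immune-like cells they were at 31.9 to 66.7 CPM (median 44.6) and 16.4 to 23.0 CPM (median 18.1). *Smarcc1* was higher in tumor cells in 5 of 6 tumors, all but MYC spinal 2, with a log2 fold change of 0.28 (SE 0.24, edgeR adjusted p = 0.453), and *Smarcc2* in 4 of 6, with 0.16 (SE 0.31, 0.777). *Smarcd1* and *Smarcd2* encode alternative BAF60 proteins that link complexes to transcription factors. *Smarcd1* was at 15.6 to 32.8 CPM in tumor and 13.5 to 25.8 CPM in immune-like cells, with a log2 fold change of -0.02 (SE 0.25, edgeR adjusted p = 0.971). *Smarcd2*, which is known for its role in granulocyte maturation, was at 18.2, 23.1 and 14.7 CPM in MYC spinal tumor cells, against 25.6, 9.67 and 11.3 CPM in those of eRT. Its immune-like levels were 13.7, 45.9 and 23.9 CPM and 21.0, 18.9 and 20.1 CPM. It was lower in tumor cells in 4 of 6 tumors, by a log2 fold change of -0.59 (SE 0.29, edgeR adjusted p = 0.164). *Smarce1*, a DNA-bending HMG subunit, lay at 46.1 to 115 CPM in tumor cells and 48.1 to 94.2 CPM in immune-like cells, and its log2 fold change was -0.04 (SE 0.20, edgeR adjusted p = 0.921). The 0 of *Smarcc2* in tumor cells was that of MYC spinal 2, which allows up to 69.2 CPM. Without that tumor the ATPases, *Arid1b* and the core subunits had log2 fold changes between -0.54 and 0.77, and none passed.

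*Actl6a*, the actin-related subunit that is known to be kept high in proliferating progenitors, did not pass the test over all 6 tumors. It was at 76.5, 46.1 and 47.9 CPM in MYC spinal tumor cells, against 44.9, 25.8 and 26.9 CPM in those of eRT. In immune-like cells it was at 81.5, 44.8 and 62.6 CPM and at 69.4, 36.2 and 56.3 CPM. The ranges overlapped, yet *Actl6a* was lower in tumor cells in 5 of 6 tumors, the exception being MYC spinal 2 with 2 UMIs in its tumor cells. The log2 fold change was -0.65 (SE 0.22, edgeR adjusted p = 0.0512), and without MYC spinal 2 it was -0.69 and passed (edgeR adjusted p = 0.0441). Without the subcluster led by *Inmt*, *Apod* and *Mgp* it was -0.66 and did not pass (edgeR adjusted p = 0.0606). It passed in 7 of 24 alternatives and was lower in all 24, with values between -0.82 and -0.47.

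**Figure D2:**
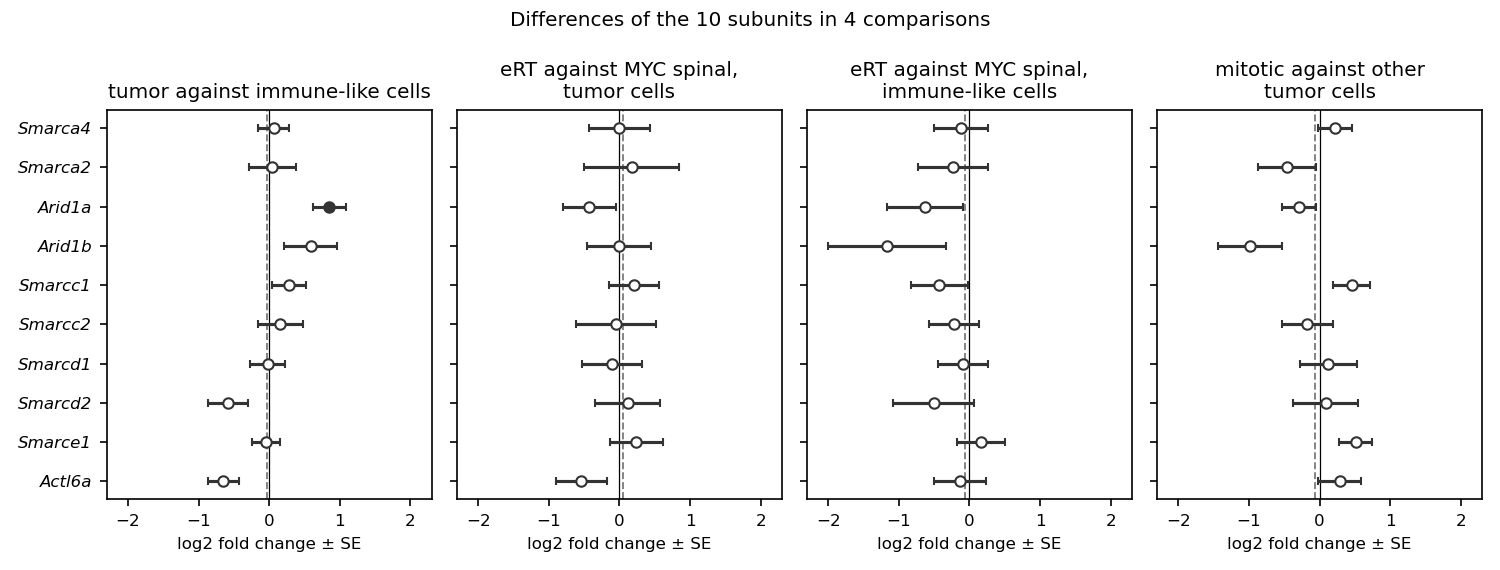
Log2 fold changes with standard errors (edgeR) of the 10 subunits in 4 comparisons, each panel with its own contrast. Filled points passed an adjusted p of 0.05, the solid line is 0 and the dashed line is the median of all genes tested. The filled point is *Arid1a* in tumor against immune-like cells (0.85), and the 3 other panels hold open points.

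Immune-like cells comprise several types, and tumor cells were therefore set against each type found with at least 10 cells in at least 3 tumors. All these contrasts shared the same tumor-cell sums and came from 1 fit. *Arid1a* and *Arid1b* had their highest median in tumor cells among 10 kinds of cells, 2 of 10 subunits against 17.0% of all 7092 genes tested, whereas *Smarcd2* had its lowest there, 1 of 10 against 10.7%. *Arid1a* was at a median of 114 CPM in tumor cells, followed by 89.3 CPM in granulocyte-monocyte progenitor-like cells (24.8 to 117 CPM over 3 tumors), 61.3 CPM in B cell-like and 60.7 CPM in T cell-like cells, and at 51.0, 48.3 and 35.1 CPM in macrophage-, monocyte- and osteoclast-like cells. Neighbours in this order overlapped in their ranges. The same held for the first 2 kinds of cells in the order of each of the 10 subunits.

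*Arid1a* was higher in tumor cells than in macrophage-like cells, where 2 of 10 subunits passed, against 39.7% of all 7092 genes tested. The log2 fold change was 1.10 (SE 0.25, edgeR adjusted p = 0.000502), and it passed in all 12 alternatives. *Arid1b* also rose in that contrast, by 0.93 (SE 0.37, edgeR adjusted p = 0.0391), but not without MYC spinal 1 (0.75, 0.0992), eRT 1 (0.85, 0.106), eRT 2 (0.87, 0.0975) or eRT 3 (0.81, 0.167), nor without the pairing (0.69, 0.529) or the filter on low counts (0.77, 0.101). Against monocyte-like cells 1 subunit passed, against 40.3% of all genes: *Arid1a*, by 1.21 (SE 0.27, edgeR adjusted p = 0.000303), or 0.94 (0.0823) without the pairing. Against osteoclast-like cells, bone-resorbing multinucleated cells of the same lineage, 1 subunit passed, against 27.7%: *Arid1a*, by 1.33 (SE 0.32, edgeR adjusted p = 0.00141), in all 12 alternatives. These myeloid contrasts have their tumor-cell sums in common and are not independent of each other.

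Against T cell-like cells 2 of 10 subunits passed, against 38.5% of all genes tested. *Actl6a* had its highest median in T cell-like cells (102 CPM, 51.3 to 163 CPM over 6 tumors) against 45.5 CPM (25.8 to 76.5) in tumor cells, ranges that overlapped. Its log2 fold change between tumor and T cell-like cells was -1.07 (SE 0.27, edgeR adjusted p = 0.00137), and it passed in all 12 alternatives. *Arid1a* rose by 0.85 (SE 0.27, edgeR adjusted p = 0.0103) over T cell-like cells, but not without MYC spinal 1 (0.67, 0.0832), MYC spinal 3 (0.64, 0.115) or eRT 1 (0.76, 0.0556), nor without the pairing (0.75, 0.192) or the filter on low counts (0.73, 0.0579). Against NK cell-like cells 2 subunits passed, against 32.8% of all genes. *Arid1a* rose by 1.07 (SE 0.30, edgeR adjusted p = 0.00393), or 1.16 (0.0529) without the pairing. *Arid1b* rose by 2.20 (SE 0.61, edgeR adjusted p = 0.00450), or 1.62 (0.0522) without MYC spinal 1 and 1.86 (0.188) without the pairing, from only 5 UMIs in all NK cell-like cells. Without MYC spinal 2 *Arid1b* gave no value against NK cell-like or macrophage-like cells, since it fell below the filter on low counts. B cell-like clusters were named in the 3 MYC spinal tumors only (26, 514 and 14 cells). In eRT a cluster of 38 cells with *Jchain*, *Mzb1*, *Cd79a* and *Cd79b* among its leading genes stayed without a type. The B cell list in immune-like cells was at 129, 467 and 8.04 CPM in MYC spinal and 11.0, 50.5 and 11.6 CPM in eRT. Against the B cell-like cells 1 subunit passed, against 16.0% of all genes: *Smarcd2*, by -1.28 (SE 0.46, edgeR adjusted p = 0.0476). That call was lost without MYC spinal 2 (-1.42, 0.240), MYC spinal 3 (-0.88, 0.357) or eRT 3 (-1.18, 0.118), without TMM factors (-1.37, 0.0540) and without the filter on low counts (-1.29, 0.107). *Smarca4* was highest in B cell-like cells, at 30.7, 224 and 153 CPM in MYC spinal 1 to 3 (2, 110 and 7 UMIs), with a log2 fold change of -0.83 (edgeR adjusted p = 0.161) for tumor cells. Conventional dendritic cell-like clusters were named in eRT only, and granulocyte-monocyte progenitor-like clusters in MYC spinal tumors only. The former cells need not be absent from MYC spinal tumors, where a cluster of 408 cells with *Mgl2*, *Xcr1* and *Clec10a* among its leading genes stayed without a type. In immune-like cells the conventional dendritic cell list was at 70.9, 35.5 and 34.4 CPM in MYC spinal and 20.3, 101 and 50.3 CPM in eRT. Against conventional dendritic cell-like and granulocyte-monocyte progenitor-like cells no subunit passed in edgeR, against 24.6% and 19.8% of all genes. Of 10 subunits, 1 and 2 had an unadjusted p under 0.05, and DESeq2 called 0 in both.

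**Figure D3:**
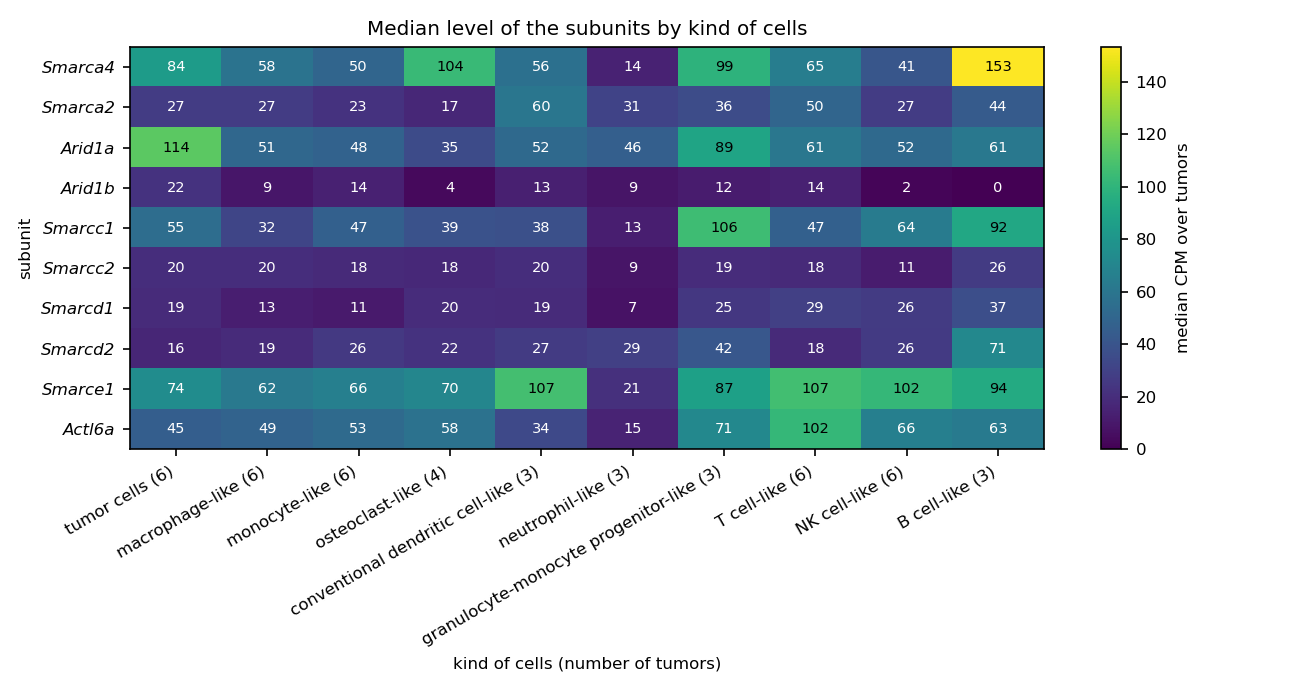
Median CPM over tumors of the 10 subunits in 10 kinds of cells, with the number of tumors in parentheses. *Arid1a* and *Arid1b* are highest in tumor cells (114 and 22.2 CPM), *Actl6a* in T cell-like cells (102 CPM), and neutrophil-like cells hold the lowest median of 6 subunits, against 45.4% of all genes, on the CPM scale without TMM factors.

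Neutrophil-like cells had low CPM of several subunits, as of many other genes. In the 3 tumors with enough of them (MYC spinal 2, MYC spinal 3 and eRT 2) *Smarca4* was at 18.7, 14.5 and 8.59 CPM, *Smarcc1* at 12.7, 17.4 and 0 CPM (0 allows up to 12.9 CPM), and *Smarcd2* at 33.4, 29.0 and 8.59 CPM. Among the 10 kinds of cells they held the lowest median of 6 of 10 subunits, against 45.4% of all 7092 genes tested. The levels of 5 of 10 subunits (*Smarca4*, *Smarcc1*, *Smarcd1*, *Smarce1* and *Actl6a*) lay below every tumor-cell value, against 25.3% of all genes, whereas those of *Smarcd2* overlapped. Here 3 of 10 subunits passed, against 44.8% of all genes tested: *Smarca4* rose by 1.47 (SE 0.44, edgeR adjusted p = 0.00580) and *Smarcc1* by 1.57 (SE 0.50, 0.0104) in tumor cells, and *Smarcd2* fell, with -1.11 (SE 0.40, 0.0224). *Smarca4* was lost without MYC spinal 3 (1.25, 0.0850) or eRT 2 (1.32, 0.0560), *Smarcc1* without eRT 2 (1.07, 0.0563), and *Smarcd2* without MYC spinal 2 (-1.03, 0.137), MYC spinal 3 (-0.70, 0.331) or eRT 3 (-1.002, 0.0691), without the filter on low counts (-1.002, 0.0793) and with stricter limits on cells (-0.72, 0.239). The scaling mattered in this contrast. Without TMM factors the median of all genes tested moved from 0.09 to 0.98 and *Smarcd2* to -0.19 (edgeR adjusted p = 0.727). The split of the genes called moved from 1558 higher and 1617 lower to 3309 and 915.

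Between immune-like types, *Actl6a* was higher in T cell-like than in macrophage-like cells, by 0.76 (SE 0.26, edgeR adjusted p = 0.0232), 1 of 10 subunits against 29.8% of all genes. It was not called without MYC spinal 3 (0.78, 0.0656), eRT 3 (0.77, 0.0739), the pairing (0.82, 0.0789) or the filter on low counts (0.71, 0.0854). In neutrophil-like against macrophage-like cells *Smarca4* fell, with -1.16 (SE 0.44, edgeR adjusted p = 0.0488), 1 of 10 subunits against 22.8% of all genes. This call held without MYC spinal 2 (-1.91, 0.0109) but not without each of the other tumors, where values lay between -1.19 and -0.81 (edgeR adjusted p from 0.0523 to 0.344), nor without the pairing (-1.05, 0.0903), with stricter limits on cells (-0.99, 0.167) or without the cells with the highest doublet scores (-1.11, 0.0809). Without TMM factors the splits of the genes called changed from 836 higher and 1280 lower to 1272 and 1009 in the first of these contrasts, and from 881 and 737 to 370 and 2536 in the second. Over the 11 contrasts that involve single types, with 10 subunits in each, 14 values of subunits passed, and 13 passed without MYC spinal 2. Between 16.0% and 44.8% of all genes tested were called per contrast, so that this count is not a result about the family.

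The subtypes were compared next, to ask whether the subunits differ between MYC spinal tumors and eRT. In tumor cells no subunit passed in edgeR, against 0.0% of all 5614 genes tested. Of all genes, 194 had an unadjusted p under 0.05 (0 subunits) and DESeq2 called 20 (0 subunits). *Arid1a* (118 to 161 CPM in MYC spinal, 53.2 to 111 CPM in eRT) and *Actl6a* (46.1 to 76.5 CPM and 25.8 to 44.9 CPM) did not overlap between subtypes, both lower in eRT, as was so for 9.62% of all genes in either direction. Their log2 fold changes were -0.42 (SE 0.37) and -0.54 (SE 0.36), with edgeR adjusted p = 1.0 for both. The other 8 subunits overlapped, with log2 fold changes between -0.11 and 0.24. Without MYC spinal 2, 0 subunits passed in any of the subtype comparisons, and *Arid1a* (118 to 147 CPM) and *Actl6a* (47.9 to 76.5 CPM) in MYC spinal still lay above eRT. In immune-like cells no subunit passed, against 0.0% of 10909 genes (222 at an unadjusted p under 0.05, 0 of them subunits, and 16 called by DESeq2). Only *Smarcc2* did not overlap there, at 18.4 to 23.0 CPM in MYC spinal and 16.4 to 17.7 CPM in eRT, against 5.54% of all genes. The largest difference was that of *Arid1b*, with -1.17 (SE 0.84), and it was 0.28 without MYC spinal 2, whose level was 52.1 CPM. The interaction term, which asks whether the change between kinds of cells differs between subtypes, called 0.0% of 9633 genes and 0 subunits in edgeR (245 genes and 0 subunits at an unadjusted p under 0.05, 2 genes by DESeq2). For *Arid1a* it was -0.01 (SE 0.51), and within MYC spinal tumors and eRT alone its log2 fold change was 0.80 and 0.82, neither past the threshold (edgeR adjusted p = 0.417 and 0.0895).

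Dividing tumor cells, taken as the subclusters led by mitotic genes, were compared with the other tumor cells in the 3 tumors with at least 10 of them, 165 cells in MYC spinal 3, 11 in eRT 2 and 54 in eRT 3. No subunit passed in edgeR, against 8.82% of all 6726 genes tested, although 2 of 10 had an unadjusted p under 0.05, and DESeq2 called 0 subunits. *Smarce1* was at 93.5, 61.0 and 122 CPM in mitotic cells of MYC spinal 3, eRT 2 and eRT 3, against 71.2, 70.0 and 66.0 CPM in the others, and *Arid1b* at 10.2, 0 and 12.4 CPM against 21.1, 10.5 and 22.6 CPM. *Smarce1* was thus higher in 2 of 3 tumors and *Arid1b* lower in 3 of 3, with log2 fold changes of 0.51 (SE 0.24, edgeR adjusted p = 0.195) and -0.99 (SE 0.45, 0.184). The sums of eRT 2 held only 3 UMIs of *Smarce1* and 0 of *Arid1b* and *Actl6a* in mitotic cells, where 0 allows up to 61.0 CPM. Without eRT 2 *Smarce1* passed, with 0.63 (edgeR adjusted p = 0.016), a call that rests on MYC spinal 3 and eRT 3 alone. *Actl6a* did not follow division detectably: it was at 55.5, 0 and 37.3 CPM in mitotic and 46.3, 28.0 and 25.3 CPM in other tumor cells (0.28, SE 0.30, edgeR adjusted p = 0.691).

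The subunits come in paralog pairs, of which those of the ATPases, the ARID proteins and the *Smarcd* proteins exclude each other within a complex while *Smarcc1* and *Smarcc2* can occur together, and the share of 1 paralog in the UMIs of its pair was compared between kinds of cells within tumors. *Smarca2* made up 24.5% ± 16.2 (SD, n = 6) of ATPase UMIs in tumor cells and 29.8% ± 11.0 in immune-like cells. The shares of *Arid1b* were 15.9% ± 3.24 and 21.2% ± 7.15, of *Smarcc2* 24.9% ± 15.2 and 30.3% ± 4.75, and of *Smarcd2* 44.3% ± 9.79 and 55.0% ± 13.3. All 4 means were lower in tumor cells, by 5.30 to 10.6 percentage points, but no more than 4 of 6 tumors went that way in any pair. None differed in an exact two-sided paired permutation test over 6 tumors (p = 0.656, 0.25, 0.312 and 0.156, Benjamini-Hochberg adjusted over 4 pairs 0.656, 0.417, 0.417 and 0.417, the smallest p this design allows being 0.0312). Without MYC spinal 2, whose tumor cells gave 2 UMIs of the ATPase pair, the difference of *Smarca2* was 1.05 percentage points and those of the other 3 were between -7.75 and -1.59. The highest and the lowest *Smarca2* share in immune-like cells were those of MYC spinal 1 and MYC spinal 3, which were also the highest and, after MYC spinal 2, the lowest in tumor cells: *Smarca2* was 44.3% of 88 UMIs in tumor and 42.5% of 315 UMIs in immune-like cells of MYC spinal 1, and 11.7% of 944 and 14.0% of 1827 UMIs in those of MYC spinal 3. Across types, *Smarca2* was 66.2% ± 14.1 (n = 3) of the pair in neutrophil-like and 13.9% ± 3.66 (n = 3) in osteoclast-like cells, ranges of 54.5% to 81.8% and 10.0% to 17.3% that did not overlap. That difference was not tested.

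**Figure D4:**
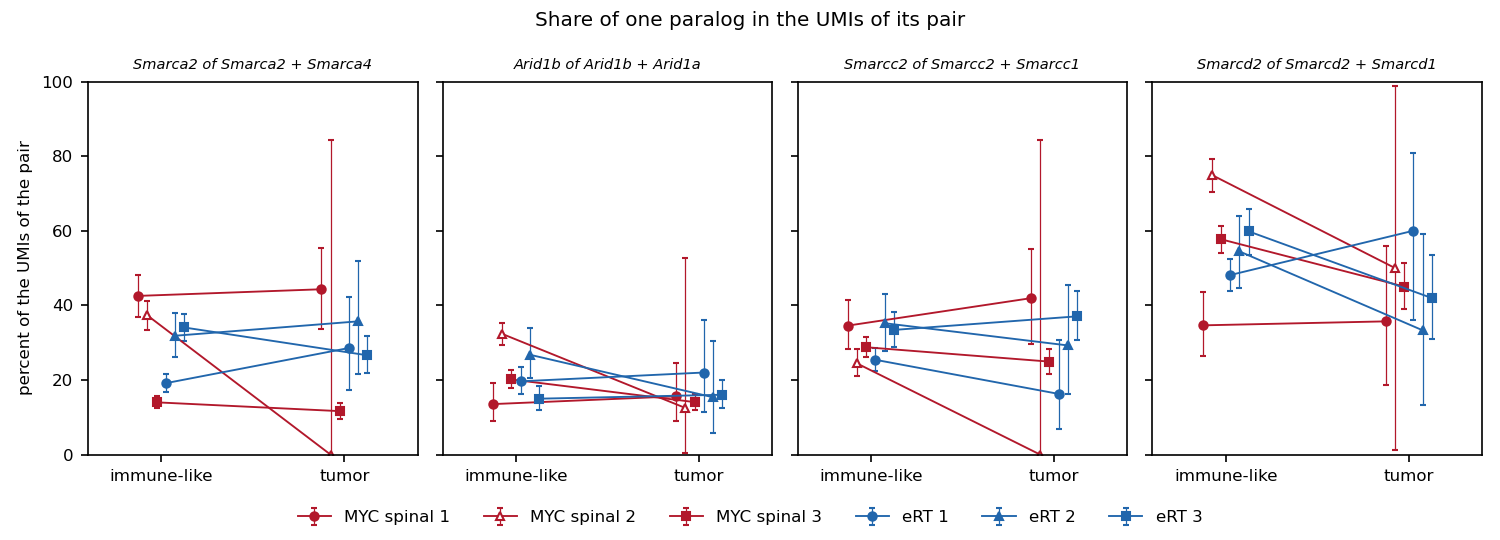
Share of 1 paralog in the UMIs of its pair, in percent, in immune-like cells (left) and tumor cells (right) of each tumor, with exact 95% binomial intervals (counting error only), MYC spinal tumors in red and eRT in blue. *Smarca2* is highest in MYC spinal 1 (42.5% and 44.3%) and low in MYC spinal 3 (14.0% and 11.7%), and the intervals of MYC spinal 2 in tumor cells span most of the axis.

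Of 19 further SWI/SNF subunits listed, 18 were in the tables (*Actl6b* was in none) and 13 were tested between tumor and immune-like cells, 1 of them *Smarcb1*. Among the other 12, 1 rose and 3 fell, against 26.6% of all genes called. *Bcl7c*, of a family of small ATPase-associated subunits, was at 62.8 to 145 CPM in tumor cells and 31.0 to 49.4 CPM in immune-like cells, without overlap, and rose by 1.15 (SE 0.24, edgeR adjusted p = 0.00524), or 0.67 (0.540) in MYC spinal tumors only. *Brd7*, a bromodomain subunit of PBAF, fell, with -1.22 (SE 0.24, edgeR adjusted p = 0.00343), from 21.7 to 48.3 CPM in immune-like cells to 9.67 to 23.7 CPM, with -1.22 (edgeR adjusted p = 0.224) in MYC spinal tumors only. *Brd9*, the bromodomain subunit of the form without *Smarcb1*, fell, with -0.90 (SE 0.26, edgeR adjusted p = 0.0254), a call lost without MYC spinal 1 (-0.79, 0.0574), eRT 1 (-0.85, 0.0659), eRT 2 (-0.94, 0.0645) or eRT 3 (-0.87, 0.0888), without TMM factors (-0.74, 0.0732), without the pairing (-1.01, 0.157) and in MYC spinal tumors (-0.82, 0.550) or eRT (-1.01, 0.0741) only. *Actb*, actin, which is foremost a cytoskeletal gene, fell as well, with -1.17 (SE 0.25, edgeR adjusted p = 0.00521), or -1.04 (0.106) in eRT only. *Smarcd3*, the third BAF60 gene, was too low to test but had 162 UMIs in tumor cells (0 to 29.9 CPM) and 18 UMIs in immune-like cells (0 to 0.623 CPM). The neuronal and muscle subunit *Dpf3* was near the floor in both kinds of cells. It had 0 UMIs in tumor cells and 11 UMIs in immune-like cells (0 to 0.623 CPM, 5 sums at 0). In the subtype, interaction and mitotic comparisons 0 further subunits passed in edgeR, with 0, 0, 0 and 1 of them at an unadjusted p under 0.05.

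Of 23 other remodelers, 22 were tested, and 1 rose and 2 fell in tumor cells, against 26.6% of all genes called. *Chd3*, a NuRD ATPase, was at 122 to 208 CPM in tumor and 28.5 to 79.9 CPM in immune-like cells, and rose by 1.64 (SE 0.23, edgeR adjusted p = 0.000448). The rise depended on the immune-like type. Over macrophage-like cells it was 2.22 (edgeR adjusted p = 7.24e-08), but over T cell-like cells 0.48 (0.197), which was not called. *Chd7*, a CHD family ATPase known from neural crest development, fell, with -3.19 (SE 0.39, edgeR adjusted p = 0.000184), from 28.7 to 128 CPM in immune-like cells to 0 to 12.7 CPM. *Baz1a*, an ISWI partner, fell, with -2.49 (SE 0.32, edgeR adjusted p = 0.000266), from 46.9 to 131 CPM to 3.64 to 28.0 CPM. All 3 passed in all 24 alternatives, and in each the ranges of the kinds of cells did not overlap, as was so for 9.73% of all genes and for 0 of the 10 subunits. In mitotic tumor cells *Hells*, a remodeler tied to DNA methylation in cycling cells, rose by 2.27 (SE 0.28, edgeR adjusted p = 9.09e-13), but not without the pairing (2.10, 0.114). *Ruvbl2* and *Ruvbl1*, AAA+ ATPases of INO80 and SRCAP complexes, rose by 0.84 (SE 0.25, edgeR adjusted p = 0.0153) and 0.68 (SE 0.24, 0.0490), calls that were lost without MYC spinal 3 (0.93, 0.650 and 0.82, 0.654) or eRT 3 (0.79, 0.709 and 0.60, 0.869), without the pairing (0.89, 0.706 and 0.70, 0.906), with DESeq2 (0.84, 0.362 and 0.69, 0.535) and without the filter on low counts (0.82, 0.0639 and 0.66, 0.199). *Ruvbl1* was lost also with stricter limits on cells (0.67, 0.0740) and without the cells with the highest doublet scores (0.65, 0.0683), so that *Ruvbl2* passed in 4 of 9 alternatives and *Ruvbl1* in 2 of 9.

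Over 39 sums of tumor and kind of cells with at least 100000 UMIs, the mean log2(CPM + 10) of the 10 subunits ran most closely with *Ptbp1* (Pearson r = 0.844), *Srsf6* (0.841), *Srsf10* (0.840), *Supt16* (0.836) and *Fubp1* (0.836), among 2529 genes with a mean of at least 50 CPM. These sums share 6 libraries and differ in depth and in kind of cells, so r is given as a description without a test. Within the family the closest pairs were *Smarcc1* and *Actl6a* (r = 0.70), *Smarce1* and *Actl6a* (0.69) and *Arid1a* and *Arid1b* (0.67), and the least alike were *Arid1b* and *Actl6a* (-0.16). The levels of *Arid1a* and *Actl6a*, whose log2 fold changes had opposite signs between tumor and immune-like cells, had r = 0.11.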

How the data were processed

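Single-cell RNA was captured with 10x 3′ chemistry from live sorted cells of 6 tumors and, per the labels, processed with Cell Ranger 2.0.2 against mm10. The authors deposited 1 table of raw UMI counts per tumor, with genes in rows and cells in columns. A gene missing from a table was taken as 0. Cells under 200 genes or above 25% of mitochondrial UMIs were dropped, and the others were clustered per subtype in Seurat 5.3.0 (integration over tumors, 2000 variable genes, 30 components, resolution 0.8). The members and the lists of further subunits and remodelers were left out of the variable genes. Immune-like clusters raised at least 3 of 5 pan-immune markers, types were named from marker lists, and tumor clusters were the others with *Smarcb1* under 0.25 of the expected level. Cells carry serial names, so barcodes shared between libraries could not be counted. Scrublet marked 21 of 22163 cells (0.0948%), too few to have worked, and no doublet was removed.

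Counts were summed per tumor and kind of cells where at least 10 cells were present, and tested with edgeR 4.0.16 (quasi-likelihood, TMM factors, filterByExpr, Benjamini-Hochberg adjustment over all genes tested). Kinds of cells from 1 tumor were paired as they came from the same animal. Alternatives used DESeq2 1.42.0, no TMM factors, no filter, no pairing, each tumor left out, other resolutions and other cell limits. The test was checked on simulated data. Values per tumor are CPM with exact Poisson 95% intervals, which, like the values of 3 UMIs given for counts of 0, cover counting error only. Paralog shares were compared with an exact paired permutation test, and likeness used log2(CPM + 10). Genes were named by a rule: every member, *Smarcb1*, up to 5 genes of each further list per comparison and direction with the largest change among those past the threshold, and the 5 genes outside the lists most like the members. *Smarcd3* and *Dpf3* fall outside it and were chosen after their values were seen. Further genes were named for the comparisons of all tumor cells and of mitotic cells only, with *Chd3* against macrophage-like and T cell-like cells added. The members and lists were chosen with earlier results of these data known.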

Additional observations from a re-analysis of the deposited data

Results flagged for a closer look

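In 60 tests for a sample far from the others of its set, 11 values stood apart, and 10 of these were of MYC spinal 2. Chance flags about 1 in 20 such sets. In the immune-like cells of MYC spinal 2 the high values were *Arid1a* at 109 CPM, *Arid1b* at 52.1 CPM and *Smarcd2* at 45.9 CPM. By type, the high values of MYC spinal 2 were *Arid1a* at 113.5 CPM and *Arid1b* at 50.9 CPM in monocyte-like cells, *Arid1b* at 67.4 CPM (5 UMIs) and *Smarcd2* at 53.9 CPM (4 UMIs) in macrophage-like cells, and *Arid1b* at 74.8 CPM (3 UMIs) and *Smarcd2* at 149.5 CPM (6 UMIs) in NK cell-like cells. *Smarce1* was at 0 CPM in the macrophage-like cells of MYC spinal 2, where 0 allows up to 40.4 CPM. *Smarcc1* in macrophage-like cells of MYC spinal 3 was at 50.7 CPM.

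In kinds of cells that were not tested on their own, *Smarcd1* was at 54.9 CPM (13 UMIs) in the cells of eRT 3 that were neither tumor nor immune-like, and *Smarce1* at 217.4 CPM (10 UMIs) in mature dendritic cell-like cells of MYC spinal 3, both above the value of 3 UMIs. The former enter only alternatives and the likeness between genes, and the latter are part of the immune-like sums.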

How the results depend on the processing

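The count of subunits called between tumor and immune-like cells was 1. It was 2 with DESeq2, with stricter limits on cells (500 genes or more, mitochondrial share up to 10%), with a *Smarcb1* limit of 0.5, without mitotic cells, without neutrophil-like cells and, chosen after seeing the data, without tumor subclusters led by immune genes. It was 0 in MYC spinal tumors only, in eRT only, and without the pairing by tumor (no replicate block), and 0 to 2 with each tumor left out. Between mitotic and other tumor cells 0 became 0 to 1 with each tumor left out, the 1 being from the fit on MYC spinal 3 and eRT 3 alone. Over the contrasts with single types 14 became 22 without TMM factors, 7 without the pairing and 9 to 15 with each tumor left out. These counts are not a result about the family, as 16.0% to 44.8% of all genes were called per contrast in the main fit. Values of single subunits under alternatives numbered 406. They cover all 10 subunits between tumor and immune-like cells, but in contrasts with single types only the 14 values called in the main fit. The subtype and mitotic comparisons are not among them, so calls gained outside the first comparison could not be counted. Of the 406 values, 325 kept direction and side of the threshold, 48 lost the call, 7 gained it and 26 changed sign. The changes of sign were all between tumor and immune-like cells, and none was past the threshold in either fit. With each tumor left out, log2 fold changes lay between -0.011 and 0.13 for *Smarca4*, -0.13 and 0.16 for *Smarca2* and -0.15 and 0.074 for *Smarcd1*. The other changes of sign were *Smarca4* (-0.0042) and *Smarca2* (-0.023) without the filter on low counts, *Smarca2* with DESeq2 (-0.046) and with stricter limits on cells (-0.029), *Smarca4* without mitotic cells (-0.022) and without neutrophil-like cells (-0.016), *Smarca2* (-0.012) and *Arid1b* (-0.072) without the pairing, *Smarcd1* (0.15) and *Smarce1* (0.14) without TMM factors, *Smarcd1* with a *Smarcb1* limit of 0.5 (0.042), *Smarca4* (-0.077), *Smarca2* (-0.31), *Smarcc1* (-0.054) and *Smarcc2* (-0.0038) in MYC spinal tumors only, and *Smarce1* in eRT only (0.025). Against macrophage-like and monocyte-like cells, chosen after seeing the data, they were *Smarca2* (-0.041), *Smarcc2* (-0.015), *Smarcd1* (0.30) and *Smarce1* (0.012). The cause was not tested. Depth limits the tumor cells of MYC spinal 2 most, where 3 UMIs are worth 69.2 CPM.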
